A study of Mus musculus with 6 samples.

Results

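The genes described are 10 monocyte effector and receptor genes, measured in bone marrow LSK cells, which lack lineage markers, carry Sca1 and c-Kit, and hold hematopoietic stem and multipotent progenitor cells. They were chosen by name, with earlier results of these data known (*Csf1r*, *Ccr2*, *Cx3cr1*, *Fcgr1*, *Ly6c2*, *Ly86*, *Lyz2*, *Ctss*, *Mpeg1* and *F13a1*). Each was found once among the 54532 genes of the deposited table. Of the 10 genes, 9 had a mean level of at least 1 FPKM over the 6 libraries and were tested, while *Fcgr1* was below that limit. FPKM counts fragments relative to gene length and library size, so levels of different genes can be set side by side. Levels of 8 of the 9 genes tested were lower in *Myh9*-deficient LSKs, most of them at 33.5% to 46.6% of control, and *Ctss* did not pass the test, with means of 32.6 and 33.4 FPKM.

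The control group (CTRL) was *Myh9*fl/fl;no cre and the *Myh9*-deficient group (cKO) *Myh9*fl/fl;*Mx1-cre*, littermates on a C57BL/6 background, with 3 libraries each. Both groups received poly I:C at 5 mg/kg, in 2 doses by the sample labels and in 3 by the methods of the study, at 5 to 6 weeks of age, and LSKs were sorted 4 days after the first injection, 100000 cells for each set. Poly I:C induces type I interferon, which turns on the *Mx1* promoter in many tissues and not in blood cells alone. The controls carried the floxed alleles without Cre, so the presence of Cre and the loss of *Myh9* cannot be told apart. How many mice each set of cells came from is not given in the sources used here, and p-values measure only the spread between these libraries.

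Monocytes arise in the bone marrow from myeloid progenitors under transcription factors such as PU.1 (*Spi1*), IRF8, KLF4 and C/EBP proteins. Classical monocytes carry Ly6C and CCR2 and leave the marrow by way of CCR2, while patrolling monocytes carry more CX3CR1 and depend on NR4A1. Part of this gene programme is already transcribed at a low level in multipotent progenitors before any monocyte is formed, so RNA of these genes in sorted LSKs can come from progenitors or from more mature cells within the gate.

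The libraries held 17571544 to 19894562 reads on genes, recovered from the FPKM values and gene lengths. *Myh9* itself went from 22.5 ± 0.495 to 18.7 ± 1.18 FPKM (mean ± SD, n = 3 per group), which is 82.9% of control and a log2 fold change of -0.26 (limma, adjusted p = 0.00642), and its groups did not overlap. This value covers the whole gene and not a deleted exon alone, so it does not measure how many cells had lost *Myh9*, and *Myh9*-deficient is used here as the name the series gives the group. Of the genes of the gate, *Kit* fell slightly (log2 fold change -0.14), while *Ly6a*, which encodes Sca1, had a value of -0.09 and was not called. Outside the gate, the leukocyte gene *Ptprc* fell by 0.15 on the log2 scale, and *Cd34* had a value of 0.05 and was not called. The lineage antibodies listed in the methods of the study were against CD3, CD4, CD8, CD11b, Gr-1, B220 and Ter119. RNA of CD11b (*Itgam*) was near the limit of the test in every library, at 0.819 to 1.39 FPKM in control and 0.610 to 0.830 FPKM in *Myh9*-deficient LSKs.

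Across all 11552 genes tested, 20.6% were lower and 19.9% higher in *Myh9*-deficient LSKs at an adjusted p under 0.05 (limma). Their median change was -0.01 on the log2 scale. Against this background, 8 of the 9 monocyte genes tested were lower and 0 were higher. Since the genes were chosen with earlier results of these data known, their counts beside all genes are not an independent test. A fall of more than 2-fold on the log2(FPKM + 1) scale was found for 0.693% of all genes and for 6 of the 9. Every *Myh9*-deficient library was below every control library for 28.5% of all genes and for the same 8 of 9 that were called. None of the 9 had passed the limit on low values through 1 group alone. The median log2 fold change of the 9 was -1.08, with a range of -1.46 to 0.03. The FPKM of the 10 genes added up to 744 to 777 in the control libraries and to 344 to 366 in the *Myh9*-deficient libraries. These are bulk libraries, in which fewer cells that carry such RNA and less of it per cell cannot be told apart.

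**Figure D1:**
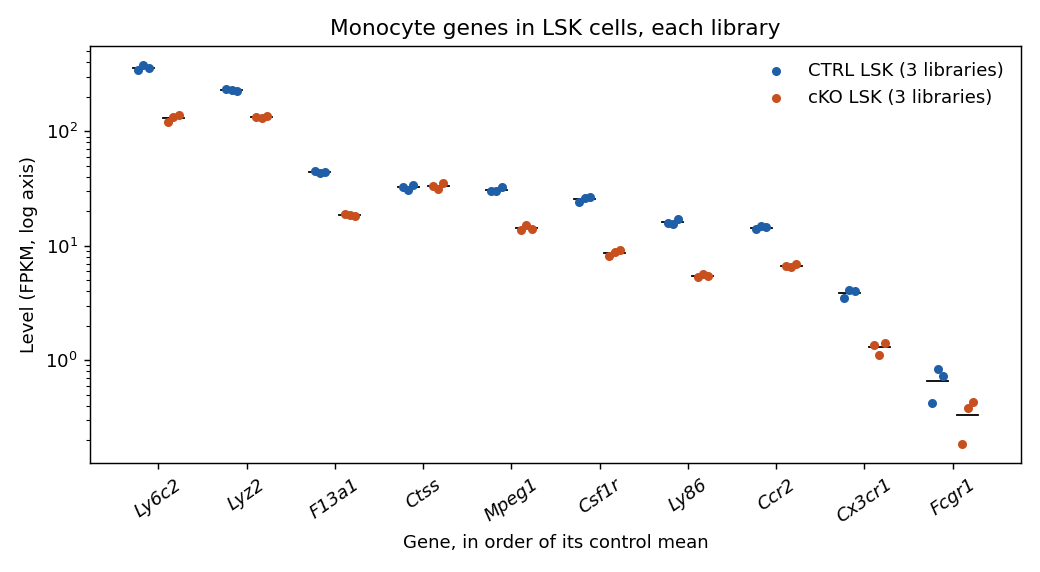
Level of each of the 10 monocyte genes in FPKM (vertical log axis), ordered by the control mean, with 1 point for each library (CTRL blue, cKO orange) and a bar at the mean of the group. The cKO points lie below all CTRL points for 8 genes and run among them for *Ctss*. For *Fcgr1* the highest cKO point lies just above the lowest CTRL point.

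*Csf1r* (ENSMUSG00000024621, mm10, chromosome 18 from 61105572 to 61132149, plus strand) encodes the receptor for CSF1, the growth factor on which monocytes and macrophages depend. It was at 24.3, 25.9 and 26.5 FPKM in the control libraries and at 8.12, 8.77 and 9.21 FPKM in the *Myh9*-deficient libraries. Every *Myh9*-deficient library was below every control library by a wide margin, on 743 to 837 reads against 2234 to 2488. The *Myh9*-deficient mean was 34.0% of control, a log2 fold change of -1.46 (SE 0.05, 95% interval -1.59 to -1.32, limma, adjusted p = 1.0e-05), which ranked 23 from the lowest of the 11552 genes tested. Of the 100-base words of the *Csf1r* transcripts, 13.5% also occur in transcripts of *Hmgxb3*, which overlaps it on the other strand. *Hmgxb3* was at 6.74 and 6.12 FPKM in the respective groups and was not called (log2 fold change -0.12, adjusted p = 0.226), and the counting was not stated to use strand.

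*Ccr2* (ENSMUSG00000049103, chromosome 9 from 124101950 to 124113557, plus strand) encodes the chemokine receptor by which classical monocytes leave the marrow. Control libraries had 14.0, 14.8 and 14.6 FPKM and *Myh9*-deficient libraries 6.69, 6.58 and 6.91 FPKM. The groups were far apart and the spread within each was small. The mean was 46.6% of control, with a log2 fold change of -0.999 (SE 0.04, adjusted p = 1.2e-05, limma), just short of the 2-fold limit because of the pseudocount.

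*Cx3cr1* (ENSMUSG00000052336, chromosome 9 from 119901616 to 120069879, minus strand), the fractalkine receptor of patrolling monocytes, was the least abundant of the genes tested. It had 3.49, 4.11 and 4.00 FPKM in control and 1.36, 1.11 and 1.42 FPKM in *Myh9*-deficient LSKs, on 313 to 346 and 91 to 119 reads. The groups did not overlap, and the mean was 33.5% of control, the lowest share of the 10 genes. Its log2 fold change of -1.08 (SE 0.08, 95% interval -1.28 to -0.88, limma, adjusted p = 1.7e-04) understates this ratio because of its low level. The annotated span of *Cx3cr1* overlaps *Csrnp1*, *Wdr48* and *Gorasp1*. *Csrnp1* and *Wdr48* were lower too (log2 fold changes of -0.69 and -0.21), and *Gorasp1* was not called (-0.04).

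*Fcgr1* (ENSMUSG00000015947, chromosome 3 from 96282909 to 96293969, minus strand) encodes the high-affinity receptor for IgG, CD64. It was at 0.427, 0.833 and 0.724 FPKM in control and at 0.186, 0.381 and 0.436 FPKM in *Myh9*-deficient LSKs. These values rest on 22, 38 and 36 reads against 9, 18 and 21, and the groups overlap. An exact permutation test gave p = 0.2 (two-sided, where 0.1 is the smallest that 3 libraries against 3 can give). Without a limit on low values its log2 fold change was -0.31 with an adjusted p of 0.162 (limma). A difference was therefore not detectable at this depth.

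*Ly6c2* (ENSMUSG00000022584, chromosome 15 from 75108158 to 75111970, minus strand) encodes Ly6C, the surface protein that marks classical monocytes, and was the most abundant of the 10 genes in control LSKs. It had 343, 381 and 360 FPKM in the control libraries and 122, 132 and 140 FPKM in the *Myh9*-deficient libraries. No library of one group came near the other group. The mean was 36.4% of control (log2 fold change -1.45, SE 0.06, limma, adjusted p = 1.3e-05). Only 30.0% of the length by which the authors divided (2740 bases) is in the principal transcript of *Ly6c2* (822 bases, 4 exons). Divided by the transcript length, the levels would be 1204 and 438, with the same ratio between groups.

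The near copy of *Ly6c2*, *Ly6c1*, shares 5.81% of the 100-base words of *Ly6c2*. Of the 50-base words of *Ly6c2*, 14.5% occur in other genes, 538 in number. *Ly6c1* was low and uneven, at 1.50, 0.575 and 5.93 FPKM in control and 1.59, 1.57 and 1.22 FPKM in *Myh9*-deficient LSKs, and was not called (log2 fold change -0.30, adjusted p = 0.669). Within 500 kb of *Ly6c2*, 10 other genes were tested, of which 4 were lower and 2 higher. A pair of pseudogenes of the cluster, named here after their values were seen, also fell by more than 2-fold. *Gm5960* fell from 82.8 ± 1.52 to 30.9 ± 1.41 FPKM (log2 fold change -1.39) and *I830127L07Rik* from 49.2 ± 4.45 to 18.4 ± 1.23 FPKM (-1.37). *Ly6e* and *Ly6i* fell less (-0.30 and -0.58), and *Ly6a*, in the same cluster, was not called. A further pseudogene within 500 kb, *9030619P08Rik*, rose from 15.6 to 30.5 FPKM (0.93). None of the 100-base words of *Gm5960* or *I830127L07Rik* occurs in another gene. Of their 50-base words, 9.80% of *Gm5960* occur in *I830127L07Rik*, and 9.58% of *I830127L07Rik* occur in 5 other genes, *Ly6c2* among them.

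*Ly86* (ENSMUSG00000021423, chromosome 13 from 37345208 to 37419036, plus strand) encodes MD-1, a secreted partner of the receptor CD180. Its levels were 15.7, 15.5 and 17.0 FPKM in control and 5.34, 5.68 and 5.42 FPKM in *Myh9*-deficient LSKs. The highest *Myh9*-deficient library was far below the lowest control library. The mean was 34.1% of control (log2 fold change -1.40, SE 0.05, limma, adjusted p = 6.9e-06). *Cd180* was at 4.42 ± 0.200 and 4.23 ± 0.371 FPKM and was not called (-0.05, adjusted p = 0.549).

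Of the 4 secreted, lysosomal and pore-forming genes, 3 were lower and 1, *Ctss*, was not called. *Lyz2* (ENSMUSG00000069516, chromosome 10 from 117277331 to 117282321, minus strand), lysozyme M, had 235, 231 and 225 FPKM in control and 135, 130 and 135 FPKM in *Myh9*-deficient LSKs. The groups did not overlap, and the mean was 57.8% of control, the smallest of the 8 falls (log2 fold change -0.79, SE 0.03, 95% interval -0.85 to -0.72, limma, adjusted p = 7.8e-06). The other lysozyme gene, *Lyz1*, shares 1.97% of the 100-base words and 15.4% of the 50-base words of *Lyz2*. It was listed at 0 in every library but 1, where it was at 0.0845 FPKM.

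*Mpeg1* (ENSMUSG00000046805, chromosome 19 from 12460779 to 12465284, plus strand) encodes perforin-2, a pore-forming protein of phagocytes. It was at 30.1, 30.0 and 32.5 FPKM in control and at 13.7, 15.2 and 14.0 FPKM in *Myh9*-deficient LSKs. The groups stood apart, and the mean was 46.2% of control (log2 fold change -1.06, SE 0.05, limma, adjusted p = 2.8e-05). All 5 other genes tested within 500 kb were lower as well, and they too were named after their values were seen. They were *Dtx4* (-0.62), which lies 1057 bases away, *Lpxn* (-0.53), *Osbp* (-0.29), *Fam111a* (-0.18) and *Zfp91* (-0.17). Around all 10 monocyte genes together, 104 other genes were tested within 500 kb, 23 lower and 23 higher.

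*F13a1* (ENSMUSG00000039109, chromosome 13 from 36867178 to 37050244, minus strand) encodes the A subunit of coagulation factor XIII, which crosslinks fibrin and is made by monocytes. It had 45.4, 43.3 and 43.7 FPKM in control and 18.9, 18.4 and 18.3 FPKM in *Myh9*-deficient LSKs. Within each group the libraries differed little, and the groups were far apart. The mean was 42.0% of control, and the log2 fold change of -1.21 (SE 0.03, limma) had the lowest adjusted p of the 10 genes, 3.5e-06. *F13a1* and *Ly86* lie 295 kb apart on the same chromosome. Other genes tested near them were not called (*Fars2* -0.01 and *Gm47754* 0.33) or fell less (*Rreb1* -0.31).

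*Ctss* (ENSMUSG00000038642, chromosome 3 from 95526786 to 95556403, plus strand) encodes cathepsin S, a lysosomal protease that trims the invariant chain of MHC class II. It was at 32.9, 30.8 and 34.1 FPKM in control and at 33.4, 31.6 and 35.1 FPKM in *Myh9*-deficient LSKs, with the groups interleaved. The log2 fold change was 0.03 (SE 0.05, 95% interval -0.09 to 0.16, limma, adjusted p = 0.638), an interval that lies above those of the other 8 genes. Values of *Ctss* rested on 736 to 888 reads, more than those of *Cx3cr1*, which was called.

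**Figure D2:**
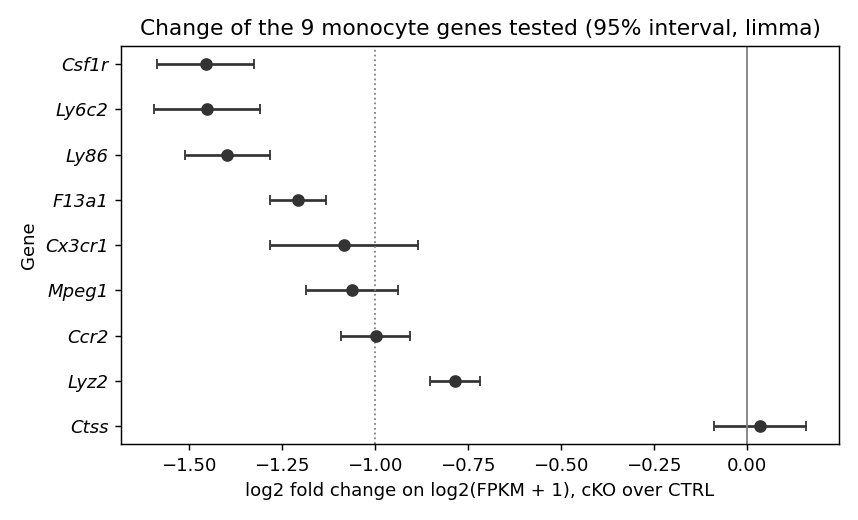
Log2 fold change of cKO over CTRL on the log2(FPKM + 1) scale (horizontal axis) for the 9 monocyte genes tested, with points at the limma estimate, bars for the 95% interval, a solid line at 0 and a dotted line at a 2-fold fall. The intervals of 8 genes lie below 0, from *Csf1r* at -1.46 to *Lyz2* at -0.79, and that of *Ctss* spans 0.

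Because the genes fell by different amounts, their order by level differed between the groups. In control LSKs it ran from *Ly6c2* and *Lyz2* through *F13a1*, *Ctss*, *Mpeg1*, *Csf1r*, *Ly86* and *Ccr2* to *Cx3cr1* and *Fcgr1*, and only *Ctss* and *Mpeg1* had ranges that overlap. In *Myh9*-deficient LSKs *Lyz2* (133 ± 2.87 FPKM) and *Ly6c2* (131 ± 9.24 FPKM) overlapped at the top, *Ctss* came next, ahead of *F13a1*, and *Ccr2* stood above *Ly86*. The order depends on the authors' gene lengths for a few genes. The principal transcript makes up 31.2% of the length used for *Ly86*, 58.6% for *F13a1* and 84.7% for *Ccr2*, and at least 96.2% for the others apart from *Ly6c2*. Per transcript length, levels in control and *Myh9*-deficient LSKs would be 51.5 and 17.5 for *Ly86*, 75.2 and 31.6 for *F13a1*, and 17.0 and 7.94 for *Ccr2*. On that scale *Ly6c2* stays above *Lyz2* and *Ly86* above *Ccr2* in both groups. Among these pairs only *Ctss* still moves ahead of *F13a1*, at *Myh9*-deficient means of 33.4 and 31.6, with ranges that overlap.

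**Figure D3:**
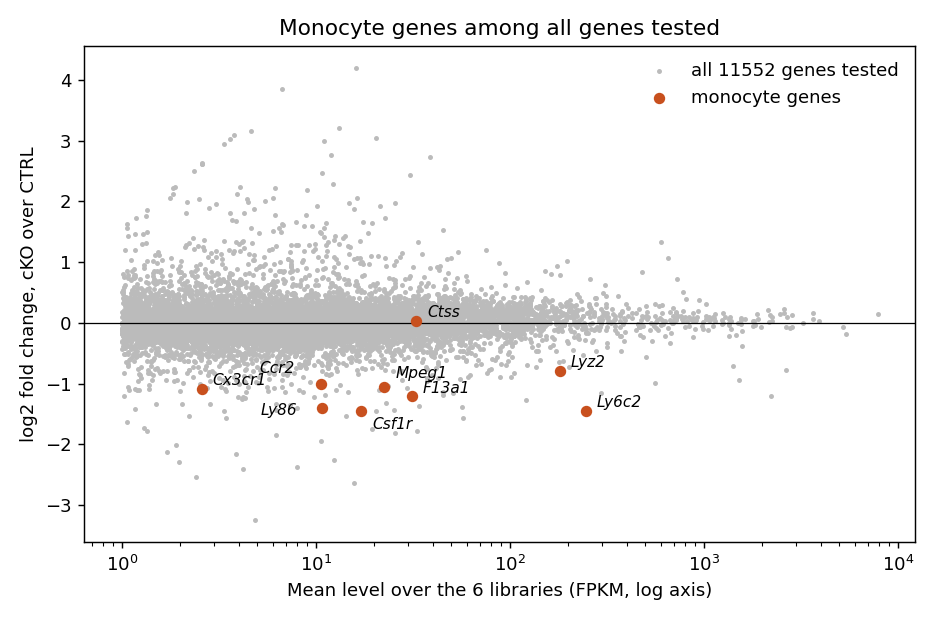
Log2 fold change (vertical axis) against the mean level over the 6 libraries in FPKM (log axis) for all 11552 genes tested, in grey, with the 9 monocyte genes tested in orange. From *Cx3cr1* at a mean of 2.58 FPKM to *Ly6c2* at 246 FPKM, 8 of them lie toward the lower edge of the grey points, and *Ctss* lies at 0.03.

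To show the sequence next to genes that fell, the 250 bases before the RefSeq start site (GRCm38.p6) are given for the 3 more than 2-fold lower genes whose window holds none of their own annotated transcripts, 5′ to 3′ on the strand of the gene. Capitals mark a match to the core motif of PU.1, GAGGAA, on either strand. The windows are chr15:75111972-75112221 on the minus strand for *Ly6c2*, chr13:37050245-37050494 on the minus strand for *F13a1* and chr19:12460520-12460769 on the plus strand for *Mpeg1*.
Ly6c2: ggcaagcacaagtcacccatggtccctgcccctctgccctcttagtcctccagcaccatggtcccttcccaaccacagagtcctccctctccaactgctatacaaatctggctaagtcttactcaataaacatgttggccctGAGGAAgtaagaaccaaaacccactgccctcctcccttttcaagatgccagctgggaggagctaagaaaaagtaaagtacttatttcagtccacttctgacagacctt
F13a1: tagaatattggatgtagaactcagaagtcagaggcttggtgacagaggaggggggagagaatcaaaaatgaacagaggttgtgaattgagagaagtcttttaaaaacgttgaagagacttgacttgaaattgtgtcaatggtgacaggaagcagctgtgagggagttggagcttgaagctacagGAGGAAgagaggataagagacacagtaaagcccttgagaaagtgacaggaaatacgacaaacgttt
Mpeg1: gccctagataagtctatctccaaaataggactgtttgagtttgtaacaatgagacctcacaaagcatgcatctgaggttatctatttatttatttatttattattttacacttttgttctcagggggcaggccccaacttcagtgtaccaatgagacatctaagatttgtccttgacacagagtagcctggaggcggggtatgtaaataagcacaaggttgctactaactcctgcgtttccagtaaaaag
The match lies 108 to 103 bases before the start site in *Ly6c2* and 66 to 61 bases before it in *F13a1*, and *Mpeg1* has none. Entries were found for 9 of the 10 genes, all but *Csf1r*. GAGGAA was found in 4 of these 9 windows (*Ly6c2*, *F13a1*, *Ctss* and *Fcgr1*) and in 23.4% of 32536 mouse promoter windows of the same length. It is present at *Ctss*, which was not called, and missing at *Mpeg1*, which fell. It is also missing at *Ccr2*, *Cx3cr1*, *Ly86* and *Lyz2*, but their windows overlap the annotated span of their own gene. The C/EBP motif TTGCNNAA was in 0 of 9 and in 9.57% of all windows. A composite ETS-IRF motif, GGAANNGAA, was in 1 of 9 (*Ccr2*) and in 6.95% of all windows. Both strands were searched, and GAGGAA can overlap the ETS-IRF motif. A match is a run of letters and was not tested as a binding site.

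Other genes of the monocyte programme were looked at by a list of 45 genes, made up of ligands, partners and near relatives of the genes above, lysosomal proteases and further monocyte genes. The list too was chosen with earlier results of these data known. Of the 45, 34 were tested, 23 were lower, 4 higher and 7 not called, with a median log2 fold change of -0.32, beside the 20.6% lower and 19.9% higher among all genes. These changes were mostly smaller than those of the 10 genes, and 4 fell more than 2-fold. The 4 higher calls became 2 without control library 1, 2 or 3 or *Myh9*-deficient library 3, each left out in turn. Among the ligands of the receptors only *Csf1* was tested. It was at 2.13, 2.07 and 2.22 FPKM in control and 1.38, 1.67 and 1.31 FPKM in *Myh9*-deficient LSKs, without overlap (log2 fold change -0.36, limma, adjusted p = 0.0114). *Il34*, the other ligand of the CSF1 receptor, was listed at 0 in every library, and *Ccl2*, *Ccl7*, *Ccl12* and *Cx3cl1* were below the limit of the test.

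Of the 10 partners and near relatives, 9 were tested and 5 were lower. *Fcgr3*, a low-affinity IgG receptor, fell from 70.3 ± 0.659 to 31.3 ± 2.86 FPKM (log2 fold change -1.15, limma, adjusted p = 4.0e-05). The signalling adaptors *Tyrobp* and *Fcer1g* fell by 0.81 and 0.63 on the log2 scale, *Sirpa* by 0.70 and the inhibitory Fc receptor *Fcgr2b* by 0.24. *Cd180*, *Ly6c1*, *Fcgr4* (-0.11) and *Ly96* (0.02) were not called. *Ly96* encodes MD-2, a relative of MD-1 that binds TLR4.

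All 9 lysosomal genes were tested, and 7 were lower and 1 higher. *Ctsh* had the largest fall, from 9.92 ± 0.734 to 3.94 ± 0.184 FPKM (log2 fold change -1.14, limma, adjusted p = 4.1e-05). *Ctsb* (-0.47), *Ctsc* (-0.36), *Ctsa* (-0.30), *Ctsz* (-0.27), the inhibitor *Cst3* (-0.22) and *Ctsd* (-0.09) fell less, *Ctsl* rose (0.22) and *Lgmn* was not called (0.19). The value of *Ctss*, 0.03, lies between those of *Ctsd* and *Lgmn*.

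Among 20 further monocyte genes, 15 were tested, with 10 lower and 3 higher. *Cd14*, the co-receptor for bacterial lipopolysaccharide, was at 20.2, 20.3 and 23.2 FPKM in control and at 4.42, 3.66 and 2.94 FPKM in *Myh9*-deficient LSKs. That is a larger fall than any of the 10 genes had (log2 fold change -2.26, limma, adjusted p = 3.5e-05). *Cybb*, the oxidase subunit gp91phox, fell by 1.06 and *Ms4a6c* by 0.92. *Chil3* rose (0.94), from 3.20 ± 0.346 to 7.06 ± 0.585 FPKM, as did *Cd33* (0.67) and *Ccl6* (0.31), and *Cd33* passed the limit on low values only through the *Myh9*-deficient libraries. The monocyte genes thus did not all move one way.

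Transcription factors of the lineage were also lower. Of 9 listed, 8 were tested and 7 fell. *Irf8*, needed for monocyte formation, was at 52.7, 51.5 and 52.1 FPKM in control and at 15.4, 14.8 and 13.3 FPKM in *Myh9*-deficient LSKs. *Nr4a1*, needed for patrolling monocytes, was at 40.6, 40.4 and 39.6 FPKM and at 10.1, 11.5 and 10.6 FPKM. Neither gene overlapped between groups, and their log2 fold changes of -1.78 and -1.81 (limma, adjusted p = 3.8e-06 and 3.5e-06) were larger than those of the 10 genes. *Klf4* (-0.81), *Zeb2* (-0.76), *Cebpb* (-0.76), *Cebpa* (-0.39) and *Spi1* (-0.34) fell less, and *Irf5* (-0.19) was not called.

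**Figure D4:**
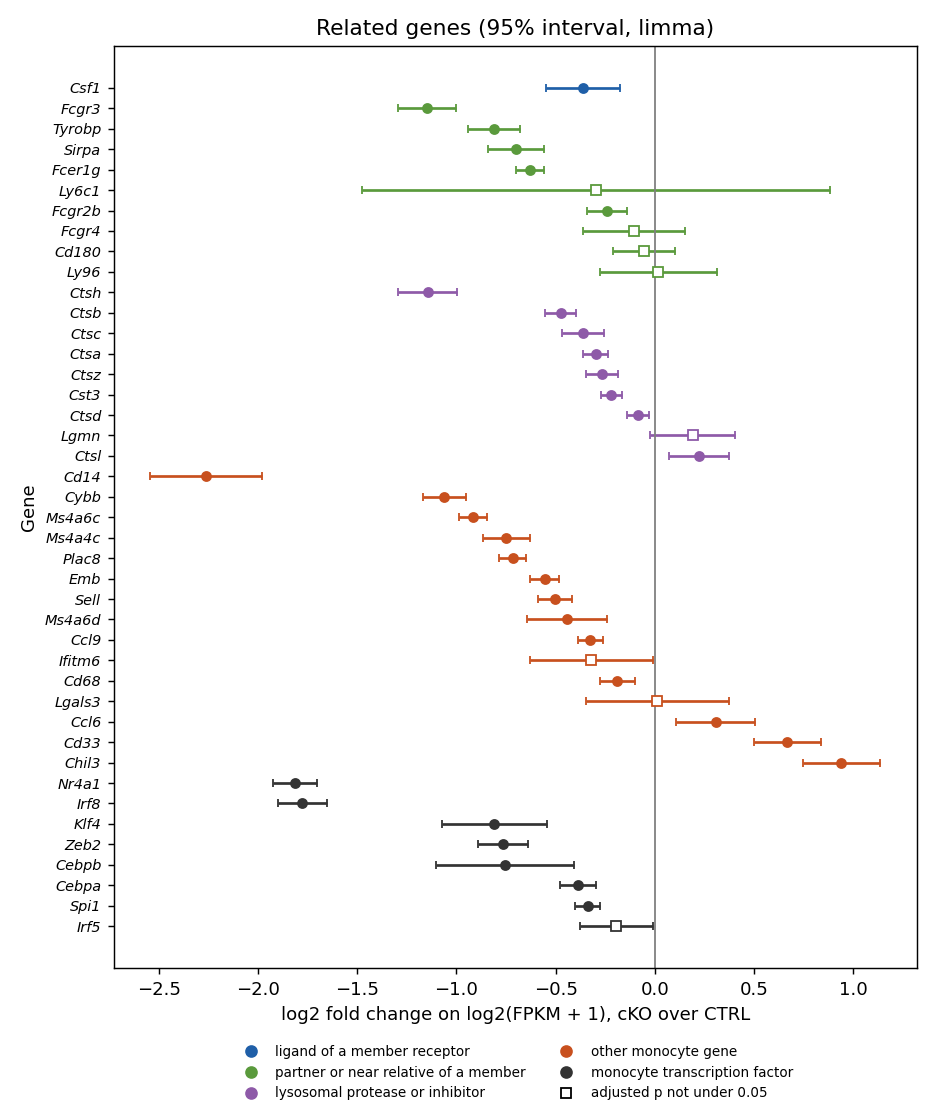
Log2 fold change of cKO over CTRL on the log2(FPKM + 1) scale (horizontal axis) with the 95% interval from limma for the tested ligands, partners, lysosomal genes, further monocyte genes and transcription factors, each group in its own colour. Open squares are genes with an adjusted p of 0.05 or more. Most filled points lie left of 0, from *Cd14* at -2.26 to *Ctsd* at -0.09, and *Chil3*, *Cd33*, *Ccl6* and *Ctsl* lie right of it.

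Markers of other cells that an LSK sort could hold moved as well, in both directions, and their part in the result was not tested. The lineage antibodies were also meant to remove T, B and erythroid cells. All 5 early neutrophil granule genes were lower, with sums of 10422 to 10488 FPKM in control and 5872 to 5970 FPKM in *Myh9*-deficient LSKs. Among them were *Elane* (-1.20), *Prtn3* (-0.94) and *Mpo* (-0.77), which share their progenitors with monocytes. Late neutrophil genes had similar sums (265 to 278 and 250 to 278 FPKM), with 5 of 9 lower and 2 higher. *Retnlg* rose most, from 8.94 to 30.1 FPKM (1.65), and *Ltf* fell most (-0.67). Of 12 macrophage genes, 5 were tested and 7 were under 1 FPKM in both groups, among them the defining genes *Mrc1*, *Marco*, *Siglec1*, *Timd4* and *Mertk*. *Adgre1* (F4/80) was lower, at 1.29, 2.17 and 1.22 FPKM against 0.610, 0.711 and 0.448 FPKM (-0.67). Of the 5 tested, *Adgre1* and *C1qc* passed the limit on low values through 1 group alone. The complement genes *C1qa* (1.37), *C1qb* (1.27) and *C1qc* (0.91) were higher, and the sum of the list went from 7.39 to 9.10 FPKM in control to 14.1 to 15.3 FPKM.

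Of 10 dendritic cell genes, 3 were tested and all 3 were higher, *H2-Ab1* (1.65), *Cd74* (1.37) and *Flt3* (0.58), with sums of 35.4 to 36.6 against 75.6 to 77.9 FPKM. *Flt3* encodes CD135, by which the study gates multipotent progenitors within LSKs, so its RNA does not mark dendritic cells alone. The defining genes *Siglech*, *Xcr1*, *Clec9a* and *Cd209a* were under 1 FPKM in every library. Among the genes not tested, *Clec9a* (means of 0.473 and 0.104 FPKM) and *Itgax* (0.735 and 0.483 FPKM) fell without overlap between groups. *Zbtb46* (0.297 and 0.550 FPKM) and *Ccr9* (0.0993 and 0.233 FPKM) rose without overlap. B and plasma cell genes had 3 of 4 tested higher (sums of 65.2 to 69.3 against 101 to 106 FPKM), with the defining gene *Ms4a1* near 0. Of the 3, *Cd79a* passed the limit on low values through the *Myh9*-deficient libraries alone. All 6 erythroid genes were higher (66.5 to 70.6 against 128 to 140 FPKM), of which *Hbb-bs* and *Hba-a1* likewise passed through that group alone. *Hbb-bt* rose most, from 3.65 to 37.4 FPKM (3.04). Of 7 T and NK cell genes, 3 were tested, 2 higher and 1 lower, and the lower one, *Nkg7* (353 ± 4.87 to 280 ± 2.97 FPKM), makes up most of the sums of 361 to 373 against 322 to 326 FPKM. *Trbc2* (1.69) and *Ccl5* (1.73) were the higher ones. *Cd3d*, *Cd3e*, *Cd3g* and *Klrb1c* were below the limit of the test, each with every *Myh9*-deficient library above every control library, as for *Cd3d* at means of 0.141 and 1.45 FPKM. Of 12 interferon-stimulated genes, 10 were tested, 5 were lower and 0 higher, with a median log2 fold change of -0.16. Among all genes tested, 20.6% were lower and 19.9% higher. A part of the interferon response in the change of the monocyte genes was not tested.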

How the data were processed

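RNA was sequenced from sorted LSK cells in 3 control and 3 *Myh9*-deficient libraries, grouped by the sample labels. The authors deposited FPKM values with gene lengths and positions for 54532 genes, made per the submitters' processing notes with HISAT2 2.0.5 on mm10. The counting program, its annotation and its use of strand are not given in the sources used here. Multiplied by gene length, 100% of the values were whole multiples of a step of the library, within 0.01, from which reads per gene were recovered. No 2 libraries agreed within sampling noise. Intervals from reads would cover counting error only.

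Genes with a mean FPKM of 1 or more were fitted as log2(FPKM + 1) in limma 3.58.1 (R 4.3.3; lmFit, then eBayes with its trend option), with two-sided tests. Benjamini-Hochberg adjustment ran over all 11552 genes, never over a list. The fit was also run on simulated reads, with the same spread for every gene and far fewer changed genes than were called here. That run does not show how well the calls hold in these data. Fold changes give *Myh9*-deficient LSKs relative to control on that scale, which understates changes of low genes, and errors are SD over 3 libraries. The members and all gene lists were chosen with earlier results of these data known. Named are all members, *Myh9*, ligands, partners and near copies, and otherwise mainly the largest changes of each list. Alternatives were another pseudocount, other filters, 3 other scalings, moderation without a trend, a replicate block, voom on recovered reads, a 2-fold limit and leaving out each library. Promoter windows came from RefSeq (GRCm38.p6), and transcripts from GENCODE M21 (GRCm38). Protein sequences were not used here, and 1 gene of the B and plasma cell markers is not reported here. Figures were drawn with Python 3.11.15, pandas 2.3.3, numpy 2.4.6 and matplotlib 3.10.9.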

Additional observations from a re-analysis of the deposited data

How the results depend on the processing

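Of the 16 alternatives, 14 gave the same counts of monocyte genes as the report, 8 lower and 0 higher. The 2-fold limit gave 6 lower, and a mean of at least 5 FPKM, which leaves out *Cx3cr1*, gave 7. *Cx3cr1* varied most, between -1.55 and -1.02 on the log2 scale over its 15 fits. *Ctss* lay between -0.0056 and 0.0709 as each library in turn was dropped, with values of -0.0056 without control library 2 and -0.0013 without *Myh9*-deficient library 3, both not called. With the 2-fold limit, 161 of all genes were higher and 80 lower, and of the related monocyte genes 0 were higher and 4 lower. Related genes called higher numbered 2 with no filter on low values, and between 2 and 3 when 1 library was left out. Equal replicate numbers do not pair the libraries by any label, and deviations of same-numbered libraries correlated at -0.00459, -0.0112 and -0.0262. With a replicate block, 2044 genes were lower and 2063 higher, against 2378 and 2295, and the 8 monocyte genes were called with adjusted p of at most 0.00241. *Fcgr1* rests on 9 to 38 reads a library, which limits what can be seen of it.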
